A study of Mus musculus with 14 samples.

Results

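Sin3B binding was compared between growing C2C12 myoblasts and the myotubes they form. The peaks of both stages were merged wherever they overlapped by at least 1 bp, which gave 4689 regions of the 5137 found when Sin3A is added. Of the 4689 Sin3B regions, 950 held a peak in myoblasts only (20.3%, exact 95% Clopper-Pearson interval 19.1 to 21.4%), 1404 held one at both stages (29.9%, 28.6 to 31.3%) and 2335 held one in myotubes only (49.8%, 48.4 to 51.2%). Intervals here and below cover counting error only. The shares depend on the length of the lists. When the myotube list was reduced to its 2387 widest peaks, as many as in myoblasts, the myoblast-only and myotube-only shares were 35.6% and 36.3%. Lists of equal length leave nearly equal numbers of peaks outside the common regions, so this closeness is arithmetic and says nothing about binding. In the stretches of the genome where regions could be set against genes, the promoters at both-stage regions included the mitochondrial ribosomal protein gene Mrpl21 and the chaperonin gene Cct8. Cdc16 and Klf6 carried Sin3B in myoblasts only, and Eif4a2 and Glyr1 in myotubes only. Runx1 carried Sin3B at both stages, with different regions at its upstream and downstream starts.

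C2C12 is a mouse muscle precursor line of C3H background. Myoblasts were kept in medium with 10% fetal bovine serum, and myotubes were made by moving confluent cells to 2% horse serum and were then parted from the remaining unfused cells with dilute trypsin. The chromatin immunoprecipitation libraries comprised 2 Sin3B samples of myoblasts and 5 of myotubes, all drawn with antibody lot H0904, beside 4 Sin3A samples and input DNA. Samples of the same stage carried identical deposited files, which left 1 list of peaks a stage and no test over samples. The myoblast list held 2387 peaks and the myotube list 3769. The labels give the same antibody catalogue number for Sin3A and for Sin3B, with different lots. The lists hold positions alone, so read depth and signal height are unknown, and a region absent from a list may still have been bound below the authors' threshold.

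Sin3B is a scaffold protein that does not itself bind DNA. It carries histone deacetylases and other chromatin proteins to promoters through partners such as the Mad (Mxd) family of repressors, E2F-bound pocket protein complexes and zinc finger factors. During muscle differentiation myoblasts leave the cell cycle, and Sin3 complexes are known for their part in silencing cell cycle genes. Most mammalian promoters that are active in many tissues lie in CpG islands, where the dinucleotide CG has not been depleted.

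The promoters that carry the findings below are printed from RefSeq (GRCm38.p6), 250 bases before to 50 bases after the listed start, 5′ to 3′ on the gene's own strand, with every CG dinucleotide in capitals. The pair of Runx1 starts is shown because Sin3B lay at the upstream start in myotubes and mainly at the downstream start in myoblasts. The upstream start (chr16:92826025-92826324, minus strand) held 2 CG and the downstream start (chr16:92697280-92697579, minus strand) 35. Mrpl21 (chr19:3282792-3283091, plus strand) stands for genes with Sin3B at both stages. Cdc16 (chr8:13757406-13757705, plus strand) and Klf6 (chr13:5861239-5861538, plus strand) stand for genes with Sin3B in myoblasts only, and Eif4a2 (chr16:23107218-23107517, plus strand) for genes with Sin3B in myotubes only.
Runx1 upstream start: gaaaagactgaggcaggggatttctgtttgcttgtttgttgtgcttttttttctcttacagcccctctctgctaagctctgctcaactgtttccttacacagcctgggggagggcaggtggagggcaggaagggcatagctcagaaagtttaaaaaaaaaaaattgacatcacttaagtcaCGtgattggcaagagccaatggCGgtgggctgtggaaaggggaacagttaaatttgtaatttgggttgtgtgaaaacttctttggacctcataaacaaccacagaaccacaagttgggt
Runx1 downstream start: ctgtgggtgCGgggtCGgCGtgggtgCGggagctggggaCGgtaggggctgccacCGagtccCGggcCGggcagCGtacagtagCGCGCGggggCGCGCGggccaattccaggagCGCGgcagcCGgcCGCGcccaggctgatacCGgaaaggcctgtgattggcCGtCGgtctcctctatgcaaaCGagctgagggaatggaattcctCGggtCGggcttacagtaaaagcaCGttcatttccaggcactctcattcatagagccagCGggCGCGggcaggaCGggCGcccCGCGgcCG
Mrpl21: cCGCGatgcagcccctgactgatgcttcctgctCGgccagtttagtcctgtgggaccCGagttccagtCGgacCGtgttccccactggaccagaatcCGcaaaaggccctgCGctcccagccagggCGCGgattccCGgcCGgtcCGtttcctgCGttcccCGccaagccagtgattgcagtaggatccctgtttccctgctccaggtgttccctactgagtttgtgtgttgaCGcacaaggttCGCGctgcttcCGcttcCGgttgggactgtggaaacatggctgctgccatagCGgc
Cdc16: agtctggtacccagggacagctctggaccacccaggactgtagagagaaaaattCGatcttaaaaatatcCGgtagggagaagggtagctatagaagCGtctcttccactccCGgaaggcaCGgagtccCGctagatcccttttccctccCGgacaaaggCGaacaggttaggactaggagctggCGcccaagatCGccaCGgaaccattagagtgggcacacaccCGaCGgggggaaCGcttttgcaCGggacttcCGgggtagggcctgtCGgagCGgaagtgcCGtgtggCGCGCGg
Klf6: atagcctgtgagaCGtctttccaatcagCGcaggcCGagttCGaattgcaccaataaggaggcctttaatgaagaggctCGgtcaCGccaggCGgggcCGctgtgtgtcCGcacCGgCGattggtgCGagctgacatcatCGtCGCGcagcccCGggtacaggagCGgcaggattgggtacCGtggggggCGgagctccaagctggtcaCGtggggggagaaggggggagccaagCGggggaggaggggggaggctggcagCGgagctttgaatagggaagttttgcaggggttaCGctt
Eif4a2: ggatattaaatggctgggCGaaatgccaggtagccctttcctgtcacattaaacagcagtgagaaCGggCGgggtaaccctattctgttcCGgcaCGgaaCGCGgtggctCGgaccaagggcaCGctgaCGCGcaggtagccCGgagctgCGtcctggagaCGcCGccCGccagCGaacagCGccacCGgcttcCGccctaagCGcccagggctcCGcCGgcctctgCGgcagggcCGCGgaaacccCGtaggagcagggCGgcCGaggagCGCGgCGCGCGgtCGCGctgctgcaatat

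Regions present at both stages were wider than regions of a single stage, partly because a merged region spans the outer ends of its peaks. The median length was 441 bp for myoblast-only regions (quartiles 340 and 552), 774 bp for both-stage regions (627 and 984) and 506 bp for myotube-only regions (398 and 642). The peaks themselves showed the same order, which the class rule favours, since wider peaks meet a peak of the other list more often. Where a list held several peaks in a region, the widest was taken. The median myoblast peak was 548 bp wide in both-stage regions against 441 bp in myoblast-only regions, and the median myotube peak was 628 bp wide against 506 bp. Regions of 1000 bp or more made up 23.3% of the both-stage class (327), 4.33% of the myotube-only class (101) and 1.89% of the myoblast-only class (18). At the other end, 75 myoblast-only regions (7.89%) were under 200 bp, against 34 myotube-only regions (1.46%) and 13 both-stage regions (0.926%). In all, both-stage regions covered 1154 kb, myotube-only regions 1280 kb and myoblast-only regions 435 kb.

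Within the 1404 both-stage regions the peaks of the 2 lists lay largely on top of each other. The median overlap was 421.5 bp, or 97.5% of the shorter peak, and 1309 regions (93.2%) overlapped over at least 50% of it. Only 27 overlapped by under 50 bp. The peak centres were a median of 112.5 bp apart, and in 1019 regions (72.6%) they were at most 200 bp apart. The myotube peak was the wider in 825 regions (58.8%, 56.1 to 61.4%), the myoblast peak in 577, and the widths were equal in 2. The median ratio of myotube to myoblast width was 1.12, with quartiles of 0.828 and 1.53. A myotube peak at least 2 times as wide as its myoblast partner was found in 173 regions and the opposite in 66, so width shifted in both directions at individual sites, more often toward the myotube.

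**Figure D1:**
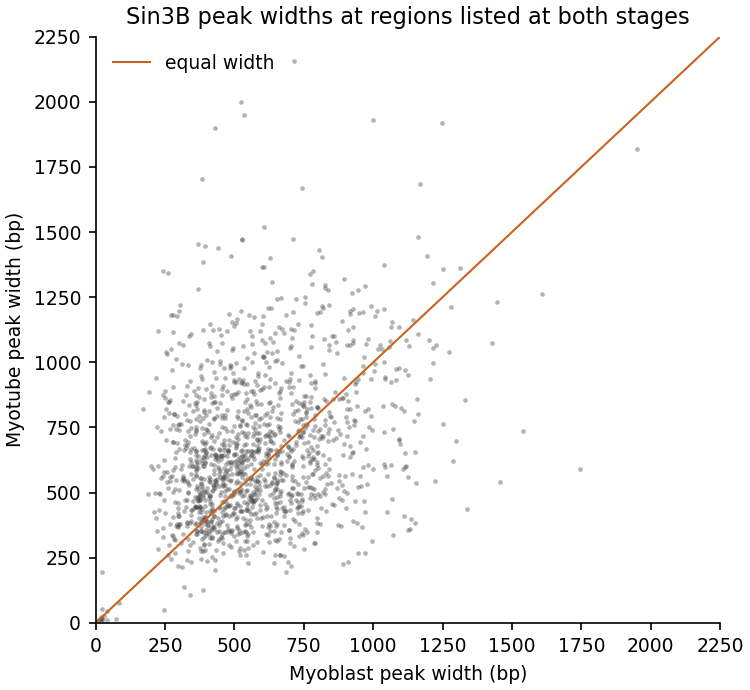
Width of the Sin3B peak in myoblasts (x axis, bp) against its width in myotubes (y axis, bp), 1 point for each of the 1404 regions listed at both stages. Where a list held several peaks in a region, the pair with the largest overlap was used. The line marks equal width, and 825 points lie above it and 577 below.

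Most regions of a single stage lay well away from any peak of the other stage. Of the 950 myoblast-only regions, 119 (12.5%, 10.5 to 14.8%) lay within 1 kb of a myotube peak and 22 within 50 bp, with a median gap of 74.1 kb. Of the 2335 myotube-only regions, 165 (7.07%, 6.06 to 8.18%) lay within 1 kb of a myoblast peak and 30 within 50 bp, with a median gap of 127 kb. The myoblast list is the shorter, so the gaps in the 2 directions are not directly comparable.

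Some regions came in groups. Another Sin3B region lay within 5 kb of 237 myoblast-only regions (24.9%, 22.2 to 27.8%), 500 myotube-only regions (21.4%, 19.8 to 23.1%) and 187 both-stage regions (13.3%, 11.6 to 15.2%). Overlapping peaks count as a single merged region, while peaks of different stages that just miss each other count as neighbouring single-stage regions. The shares of the classes are therefore not directly comparable. Linking regions at most 5 kb apart gave 425 groups of 2 or more, of which 229 mixed classes. In 141 groups all regions were myotube only, in 34 all were myoblast only and in 21 all were at both stages. A further view of the mixed groups is that 91 of them joined myoblast-only to myotube-only regions with no both-stage region among them. The group with the most regions was on chromosome 6 and held 8 regions over 21.5 kb (chr6:52174343-52195860 in the files' own coordinates, whose build the sources used here do not state), 7 of them myoblast only and 1 myotube only. A group of 6 on chromosome 12 (chr12:74140386-74147644) held 5 myoblast-only regions and 1 at both stages. In contrast, a group of 4 on chromosome 17 (chr17:34161491-34169418) and another of 4 on chromosome 3 (chr3:88420660-88428235) were myotube only throughout. These loci were not set against genes because their positions did not coincide with the gene table.

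The balance of classes varied between chromosomes, most of them staying near the totals. The myoblast-only share ran from 14.0% on chromosome 10 (39 of 279; 10.1 to 18.6%) to 40% on chromosome X (18 of 45; 25.7 to 55.7%). Both intervals leave out the total of 20.3%, as do those of chromosomes 8 (25.8%, 20.9 to 31.2%), 14 (29.3%, 21.9 to 37.6%) and 2 (16.3%, 12.8 to 20.2%). Chromosome X also had the lowest both-stage share, 15.6% (7 of 45; 6.49 to 29.5%). On chromosome 7 the myotube-only share was 59.2% (122 of 206; 52.2 to 66%) and the both-stage share 20.4% (15.1 to 26.5%). On chromosome 13 the myotube-only share was 39.9% (65 of 163; 32.3 to 47.8%) and the both-stage share 36.8%. These are the extremes of 20 chromosomes read over 3 classes, and no test was made.

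**Figure D2:**
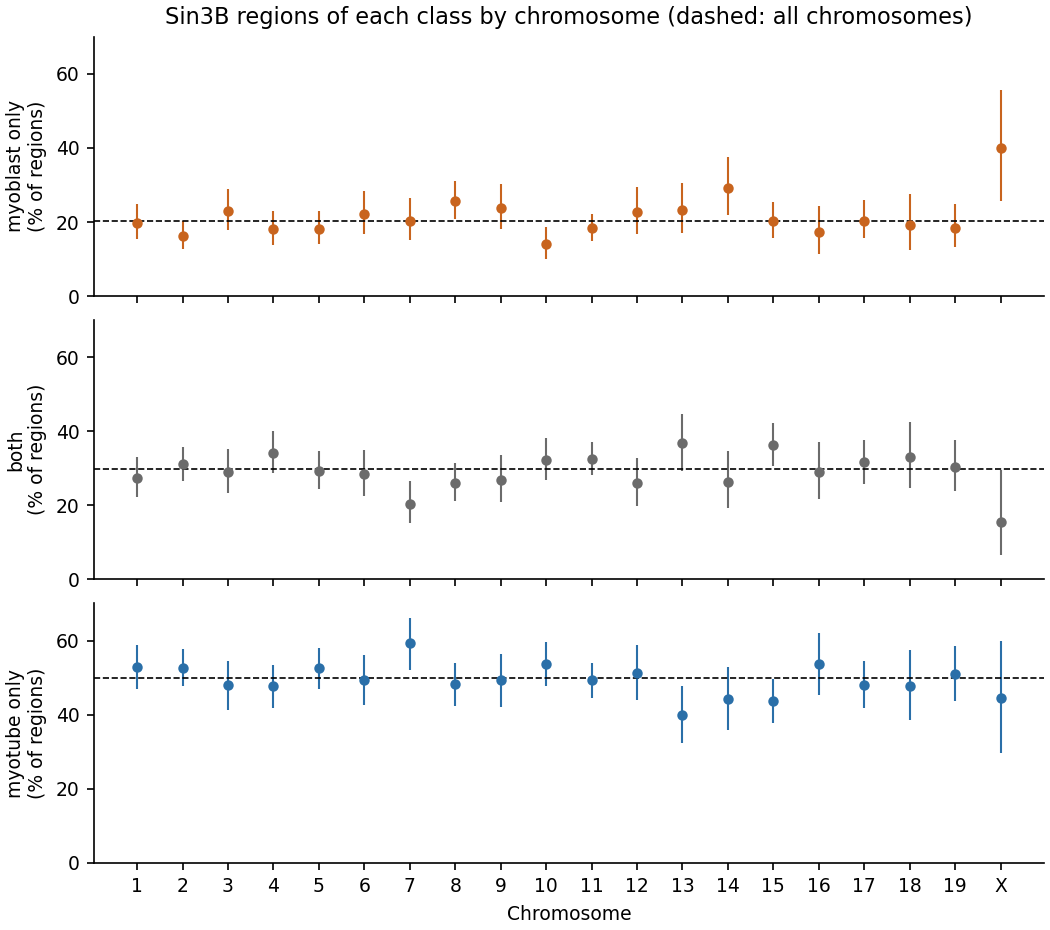
Share of Sin3B regions in each class (y axes, percent) on each chromosome (x axis), with exact 95% intervals for counting error. Dashed lines give the shares over all chromosomes, and chromosome X stands highest for the myoblast-only class at 40%.

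Sin3A, the closely related scaffold, was listed most often where Sin3B was present at both stages, counting any overlap of at least 1 bp. Both-stage regions are also the longest, with a median of 774 bp against 441 bp (myoblast only) and 506 bp (myotube only). Longer regions meet a peak more often wherever they lie, and the shares were not adjusted for length. A Sin3A peak of either stage overlapped 404 of the 1404 both-stage regions (28.8%, 26.4 to 31.2%), 382 of the 2335 myotube-only regions (16.4%, 14.9 to 17.9%) and 70 of the 950 myoblast-only regions (7.37%, 5.79 to 9.22%). The stage of Sin3A followed that of Sin3B in part. Myotube-only regions carried a myotube Sin3A peak in 315 cases (13.5%) and a myoblast Sin3A peak in 101 (4.33%). Myoblast-only regions carried a myoblast Sin3A peak in 50 cases (5.26%) and a myotube Sin3A peak in 22 (2.32%). Both-stage regions carried a myoblast Sin3A peak in 185 cases (13.2%) and a myotube Sin3A peak in 303 (21.6%), and in 84 both. Regions with Sin3A at either stage were longer at the median than those without it in the both-stage class (845.5 against 746 bp) and the myotube-only class (597 against 494 bp). In the myoblast-only class they were shorter (423 against 442.5 bp), and with myoblast Sin3A alone the medians were 402.5 bp with it and 443 bp without.

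Genes could be read only where the files' positions coincide with the RefSeq gene starts of GRCm38.p6. This held in 18 bins of 5 Mb on chromosomes 5, 8, 12, 13, 16 and 19, chosen because at least 50% of the regions of all 4 lists there lay within 1 kb of a listed start. In these bins 76.7% of the 210 regions of the 4 lists lay at a start, against 6.67% after the regions were moved by 20 kb and 6.43% in the rest of the genome. The bins held 194 Sin3B regions, or 4.14% of all, and 131 of them were on chromosome 16. The high overall share at starts follows from how the bins were chosen and is no result, and what follows describes these 194 regions and not the genome.

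Because of how the bins were chosen, most regions in these stretches lay at gene starts, so only the split by class is described. A start was within 1 kb of 25 of 34 myoblast-only regions (73.5%, 55.6 to 87.1%), 47 of 57 both-stage regions (82.5%, 70.1 to 91.3%) and 82 of 103 myotube-only regions (79.6%, 70.5 to 86.9%). The intervals overlap widely. Of the other 40 regions, 17 lay at an end of a gene whose start the promoter table does not list, 19 lay inside a gene and 4 between genes. Bins on chromosomes 8, 12 and 16 extend past the last region that meets a start, and features there may be misread. With runs of regions at starts in place of bins, the 3 counts were 20, 14 and 4, of 232 regions. The 17 included a both-stage region of 1014 bp between Mcm4, a subunit of the replicative helicase, and Prkdc, the DNA-dependent protein kinase (myoblast peak 456 bp, myotube peak 896 bp). They also included a both-stage region at Shcbp1 (500 and 645 bp), with Sin3A at both stages, and a myotube-only region of 355 bp at Cox17, a copper chaperone of cytochrome oxidase.

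Position relative to the start was described by the region centre and by whether the start fell inside, with no test. The start itself fell inside the region for 38 of 47 both-stage regions (80.9%), 14 of 25 myoblast-only regions (56%) and 41 of 82 myotube-only regions (50%). Both-stage regions are longer by construction, so a nearby start falls inside them more often wherever they lie. The centre lay a median of 82 bp downstream of the start for both-stage regions (quartiles -26.8 and 218, negative values being upstream) and 97 bp downstream for myoblast-only regions (-153 and 204). For myotube-only regions it lay 229 bp downstream (12.9 and 413). The build of the files is unknown, no coordinate was converted and the bins rest on coincidence within 1 kb. A smaller shift between builds would pass that rule and change these distances, so they are approximate. Opposed pairs of coding starts, in which neighbouring genes on opposite strands begin within 1 kb of each other, lay at 25 of the 154 regions at starts (16.2%, 10.8 to 23.0%). Over all 780 coding starts of the stretches, 67 (8.59%) had such a neighbour. A region is near more starts at such pairs, so its chance of lying within 1 kb of one is higher there.

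**Figure D3:**
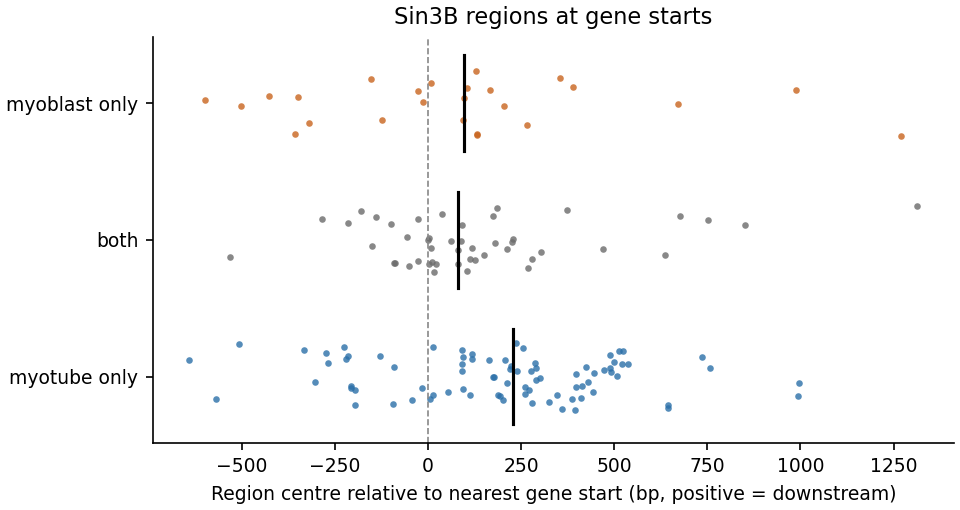
Distance of the region centre from the nearest gene start (x axis, bp, positive values downstream) for the 154 Sin3B regions at starts, by class. Each point is a region and the black line is the class median, 97, 82 and 229 bp from top to bottom. Distances are approximate because the files' build is unknown and no coordinate was converted.

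The stretches held 645 protein-coding genes with a listed start. Some lie past the last coincidence with a start in their bin, and there a gene or start counted as without Sin3B may be misread. Sin3B lay within 1 kb of a start of 160 of them, which is 24.8% of these genes. By class, 19 genes carried Sin3B in myoblasts only (2.95%), 64 at both stages (9.92%) and 77 in myotubes only (11.9%). With the wider 50% of each list these counts were 24, 31 and 51. At 57 of the 64 genes a common region was present at both stages, and at 7 the stages had separate regions. Sin3A lay at 5 of the 160 genes in myoblasts and at 28 in myotubes. None of the 19 myoblast-only genes had Sin3A at either stage, and 15 of the 77 myotube-only genes and 13 of the 64 both-stage genes had it in myotubes. Over all myoblast-only regions 7.37% met Sin3A of either stage, so few of 19 genes would have it at that share. Myotube Sin3A met 13.5% of all myotube-only and 21.6% of all both-stage regions. The share of all 645 genes with Sin3A was not counted, and no difference between classes is read from these counts. Genes that share a start region, such as Ighmbp2 and Mrpl21, count separately although the region is the same.

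The gene ranked first by width at both stages was Runx1 (1138 bp in myoblasts and 1031 bp in myotubes, in different regions), which is described below with its starts. The region shared by Ighmbp2, a helicase, and Mrpl21, a protein of the large mitochondrial ribosomal subunit, held peaks of 929 bp in myoblasts and 1206 bp in myotubes. Cct8, a subunit of the chaperonin that folds actin and tubulin, had 983 and 1091 bp. Rab10, a small GTPase of vesicle transport, had 887 and 1157 bp. The myotube peak was the wider at these 3 regions. Cmss1 (868 and 1035 bp) and the nucleolar protein gene Rsl1d1 (1035 and 833 bp) also had Sin3A in myotubes, and Fam162a (741 and 985 bp) had it at both stages. Smpd4, a neutral sphingomyelinase, had 830 and 851 bp, and Rbm48, which acts in splicing of minor introns, 873 and 741 bp. Among these 10 genes the myoblast peak was the wider for Runx1, Rsl1d1 and Rbm48.

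Among the 19 genes with Sin3B in myoblasts only, Cdc16 had the widest peak, 1125 bp. It encodes a subunit of the anaphase-promoting complex, the ubiquitin ligase that drives exit from mitosis. The next were narrower. Bfar, a membrane-bound ubiquitin ligase, had 665 bp, Tbc1d23, which acts in vesicle capture at the Golgi, 611 bp, and Ess2, a nuclear protein linked to the spliceosome, 590 bp. Klf6, a zinc finger transcription factor induced early after growth stimulation, had 583 bp. Timm44, part of the mitochondrial import motor, had 539 bp, the spliceosomal isomerase gene Ppil2 514 bp and the topoisomerase gene Top3b 474 bp. Dcun1d2, which promotes neddylation of cullins, and Tmco3 shared a region of 451 bp. All of these lack a myotube peak within 1 kb of the start, and the peaks apart from that of Cdc16 were at most 665 bp wide.

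Among the 77 genes with Sin3B in myotubes only, 1810013L24Rik had the widest peak, 1404 bp, with Sin3A in myotubes. Cdip1, a target of p53 in cell death, had 1056 bp. Glyr1, a nucleosome-binding cofactor of transcription through chromatin, shared 1049 bp with Ubn1, a subunit of the HIRA chaperone complex for histone H3.3. Hira, the name-giving subunit of that complex, was also in this class, with a region of 333 bp that it shares with Mrpl40. It was chosen for mention after its values were seen. Eif4a2, a helicase of translation initiation, had 1030 bp with Sin3A in myotubes, and Abcf3, 955 bp. Ankib1 and Krit1, the latter a regulator of vessel wall junctions, shared 994 bp. Gspt1, the release factor eRF3a of translation termination, shared 944 bp with LOC115488671. Of these 10 genes, 1810013L24Rik, Eif4a2, Ankib1, Krit1, Gspt1 and LOC115488671 had Sin3A in myotubes.

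Several genes had neighbouring regions of different class at the same start. At Cdc45, a replication fork helicase factor, and its opposed neighbour Ufd1, a myotube-only region of 776 bp covered a start and a both-stage region of 646 bp lay beside it (myoblast peak 521 bp, myotube peak 596 bp). The start shared by Atp5j, a subunit of ATP synthase, and Gabpa, an ETS family transcription factor, had the same arrangement. There a both-stage region of 806 bp (480 and 354 bp) stood next to a myotube-only region of 891 bp. Cul4a with Pcid2, Zbtb11 and Alg3 with Eef1akmt4 were likewise flanked by an extra myotube-only region, of 317, 839 and 584 bp. At Asxl2, a chromatin regulator, a myotube-only region of 301 bp ended close to a myoblast-only region of 422 bp. The same side-by-side pattern, with no region at both stages, was seen at Pmm2 with Tmem186 (562 bp in myoblasts, 484 bp in myotubes) and at Pet100 with Xab2 (544 and 555 bp). Rasa3 (707 and 530 bp) and Pdxdc1 (806 and 382 bp) showed it too. These 7 genes are those counted above as having separate regions.

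Runx1, a Runt family transcription factor essential for blood formation, had regions of all 3 classes. It lies on the minus strand of chromosome 16 and has 2 listed starts, 128745 bp apart. At the upstream start 3 regions were myotube only, 1031, 283 and 589 bp long, with centres 0.43, 1.20 and 2.32 kb downstream of it. Past the downstream start 3 regions were myoblast only, 546, 394 and 406 bp long, with centres 354.5, 3307.5 and 3872.5 bp into the gene. Between them lay a both-stage region of 1189 bp, centred 1314 bp into the gene, whose myoblast peak was 1138 bp wide and whose myotube peak was 399 bp. It was the only region of the 7 with Sin3A, in myoblasts. Thus no myoblast peak lay at the upstream start, and the only myotube peak past the downstream start was narrower than the myoblast peak it overlaps. In the bin from 90 to 95 Mb of chromosome 16, Runx1 is the last locus whose regions meet listed starts. The nearest region is 82 bp from the downstream start and another covers the upstream one, while regions of higher coordinates in the bin lie far from any listed start. With runs of regions at starts in place of bins, the stretch on chromosome 16 ended at 92.3 Mb, short of Runx1, which was then not among the genes read.

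**Figure D4:**
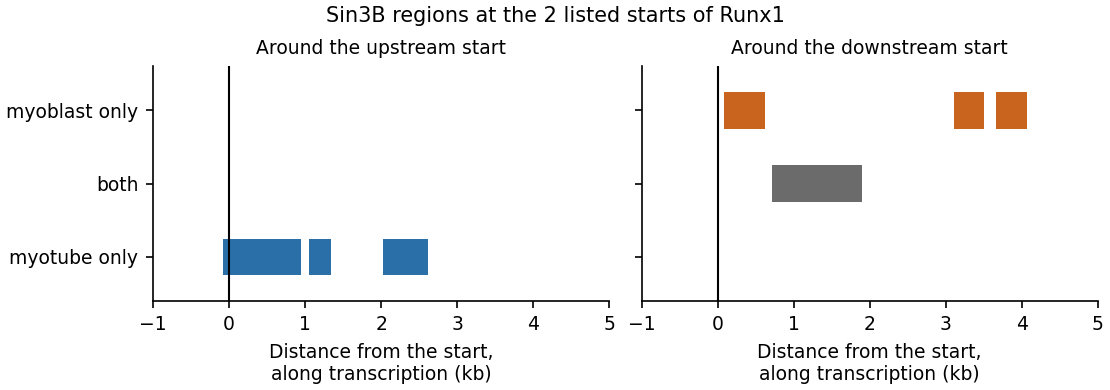
Sin3B regions around the upstream (left) and downstream (right) listed starts of Runx1, drawn to scale by distance from each start along the direction of transcription (x axis, kb), with 1 row for each class. The vertical line is the start. The 3 regions at the upstream start are myotube only, and those past the downstream start are 3 myoblast-only regions and 1 at both stages.

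Gene groups were small in these stretches, and their counts stand beside the 24.8% of all 645 genes. All 5 genes for mitochondrial ribosomal proteins had Sin3B, Mrpl11 (799 and 616 bp), Mrpl21 and Mrpl39 (612 and 953 bp) at both stages and Mrpl40 (333 bp) and Mrps6 (550 bp) in myotubes only. Mrpl21 shares its region with Ighmbp2, Mrpl40 with Hira and Mrps6 with Slc5a3. Of 8 genes taken into the list of translation factors and tRNA synthetases, 6 had it. Eif2b5 (536 and 630 bp) and the mitochondrial tRNA synthetase gene Yars2 (500 and 756 bp) had it at both stages, and Eif4a2 and Eif4g1 (458 bp) in myotubes only. The other 2 of the 6 are Eef1akmt4 and its read-through with Ece2, a methyltransferase of elongation factor that the list caught by its name. Of 5 respiratory chain genes, 3 had Sin3B. Ndufv1 (710 and 517 bp) and Atp5j had it at both stages and Ndufs8 (381 bp) in myoblasts only, while Atp5o and Ndufb4 had none. Of 3 cytoplasmic ribosomal protein genes only Rpl35a had a region, of 353 bp in myotubes.

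The cell cycle and replication list was represented by 4 genes. Cdc45 (521 and 776 bp) and Rfc4, a subunit of the clamp loader (673 and 440 bp), had Sin3B at both stages, while Cdk6 and the E2F partner Tfdp1 had none. Cdc16 and Mcm4 are not among these 4, Mcm4 for want of a listed start. Of the Sin3 complex and its partners only Ing1, an inhibitor of growth family protein that reads histone H3 methylation, lay in the stretches, with a myotube-only region of 275 bp. Of 3 splicing factor genes Tra2b had a myotube-only region (372 bp). Rbfox1 and Sf3b6 had none at a start, but Sf3b6 lies past the last coincidence on chromosome 12, where this may be misread. Of 3 proteasome and ubiquitin genes Cul4a had Sin3B at both stages (637 and 1035 bp) and Ube2l3 in myotubes only (434 bp). Klf6 was the only member of the immediate early and stress response list in the stretches, and that list does not hold every such gene. No region lay at any of 29 olfactory and vomeronasal receptor genes, 6 zinc finger protein genes of the Zfp series, 3 listed extracellular matrix genes (Col4a1, Col4a2 and Itgb5), the glycolytic gene Pfkp, the muscle coactivator gene Mrtfb or the adipocyte marker gene Adipoq. The extracellular matrix list does not hold every such gene. The collagen gene Col8a1, outside it and named after its values were seen, had a myoblast-only region of 432 bp at its start. No sarcomere gene and no replication-dependent histone gene lay in the stretches, so Sin3B at these was not analysed here. The labelled cell type could not be checked against its markers, since the lists hold no expression.

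Far from listed starts little could be read. Of the 194 regions 24 lay over 10 kb from any listed start. Several of these were at genes whose start is absent from the table, and others lay past the last coincidence with a start. Hes1, a repressor downstream of Notch, held a both-stage region of 432 bp at its end (392 and 394 bp) and a myoblast-only region of 333 bp within it. Other regions lay inside Tfap4 (674 bp, myotube only) and Tiam1 (363 bp, myotube only). Of 32 listed miRNA hairpins in the stretches, 6 had a Sin3B region within 5 kb. With a window of 5 kb around their starts, 25 of the 645 coding genes had Sin3B in myoblasts only, 68 at both stages and 82 in myotubes only. Nothing particular to hairpins is read from their count. The nearest hairpins were Mir1945, 265 bp from a myotube-only region, and Mir484, 356 bp from a myoblast-only region. These regions also lie at the starts of the coding genes Gspt1 and Marf1.

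Promoters with Sin3B were rich in CpG whatever the stage. The ratio of observed to expected CpG over the 300 bases had a median of 0.468 at the 598 coding starts without Sin3B, 0.819 at 20 starts with Sin3B in myoblasts only, 0.887 at 68 starts with it at both stages and 0.833 at 94 starts with it in myotubes only. A ratio of at least 0.6, a customary limit for CpG islands, was reached by 41.3% of starts without Sin3B and 47.7% of all coding starts in the table. It was reached by 75% of myoblast-only starts (15 of 20; 50.9 to 91.3%), 94.1% of both-stage starts (64 of 68; 85.6 to 98.4%) and 93.6% of myotube-only starts (88 of 94; 86.6 to 97.6%). Seen from the promoter, 167 of 414 CpG-rich starts had Sin3B (40.3%, 35.6 to 45.2%), against 15 of 366 below that ratio (4.10%, 2.31 to 6.67%). Starts count separately, although opposed neighbours and alternative starts of a gene can share a region and overlap in sequence. The intervals do not allow for this and are too narrow to that extent. The printed sequences show the range. Runx1 had a ratio of 0.137 at its upstream start, the lowest of the 182 starts with Sin3B, and 1.01 at its downstream start. The ratio was 0.733 for Mrpl21, 0.851 for Cdc16, 0.844 for Klf6 and 1.05 for Eif4a2.

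**Figure D5:**
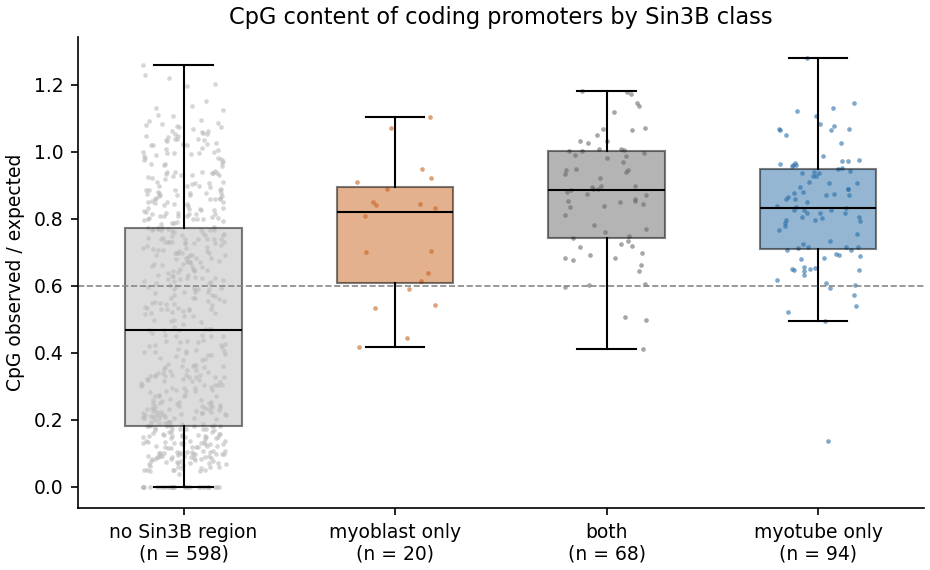
Observed over expected CpG (y axis) of the 300 bases around each coding start in the stretches, by Sin3B class (x axis, n starts). Points are starts, boxes give the quartiles and median, whiskers reach the last point within 1.5 box lengths and the dashed line is 0.6. The medians are 0.468, 0.819, 0.887 and 0.833 from left to right, and the lowest point of the myotube-only class is the upstream start of Runx1.

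Short motifs were searched in these promoters on both strands, 14 in all, as matches of letters. Here too starts count separately, so a motif in overlapping promoters can count more than once, which the intervals do not allow for. An ETS core, CCGGAAGT, was present at 3 of 20 myoblast-only starts (15%, 3.21 to 37.9%), 14 of 68 both-stage starts (20.6%, 11.7 to 32.1%) and 15 of 94 myotube-only starts (15.96%, 9.22 to 24.95%), against 5.15% of all coding starts in the table. Within CpG-rich starts alone it was present at 29 of 167 with Sin3B (17.4%, 11.9 to 24.0%) and 17 of 247 without (6.88%, 4.06 to 10.8%). The printed Cdc16 promoter holds 1 match, within its run of letters. The cyclic AMP response element TGACGTCA stood at 7.19% and 2.83% of CpG-rich starts with and without Sin3B, with overlapping intervals, and at 2.24% of the table. The GC box GGGCGG was present at 68.3% of CpG-rich starts with Sin3B (60.6 to 75.2%) and 78.1% of those without (72.5 to 83.1%), and at 46.2% of the table, and Klf6 holds 1 and Eif4a2 holds 4 matches. The E-box of Myc and Max proteins, CACGTG, did not stand out, at 11.4% and 12.6% of CpG-rich starts with and without Sin3B, nor did the E-box CAGCTG of myogenic factors, at 15.0% and 10.9%, where the table has 7.83% and 15.6%. The ETS core was singled out after the counts of all 14 motifs were seen, and no test was made.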

How the data were processed

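Chromatin immunoprecipitation of Sin3B was sequenced in C2C12 myoblasts and myotubes. The deposited files of the authors hold chromosome, start and end of peaks and no other unit. No source used here states the aligner, peak caller, threshold, use of input, pooling or build. Read depth is thus unknown, and precision is limited to counting error.

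Files of a group were byte-identical and counted once, so n = 1 list a stage. Starts were written counting from 1. Peaks of both stages overlapping by at least 1 bp were merged (Python 3.11.15, pandas 2.3.3). Shares carry exact 95% Clopper-Pearson intervals (scipy 1.17.1). Class and distance code was tested on simulated lists of 600 regions and made 0 errors in 20 lists. The simulated regions lay far apart with at most 1 peak of each list, so closely spaced regions and regions of several peaks were not covered.

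Gene starts are those of the RefSeq promoter table (32851 entries, GRCm38.p6), used only in 5 Mb bins with at least 5 regions of the 4 lists of which at least 50% lay within 1 kb of a start. No coordinate was converted. Names rest on that coincidence. Chromosome 18 has no entry there and was not read for genes. Genes with a listed start were matched by symbol to 17 gene lists. Named genes are, in each class, the 10 coding genes with the widest peak at the start (at both stages by mean rank of width), list members, and the 5 widest regions of each class over 10 kb from a start, of which those past the last coincidence with a start are not named. The result for 1 further region is not reported here. Further genes with several regions at a start, and those at ends of genes without a listed start, were chosen after their values were seen. Members, classes and lists were chosen with earlier results of these data known. The alternatives tried were other overlap, width, window and stretch rules.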

Additional observations from a re-analysis of the deposited data

How the results depend on the processing

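The 3 class shares depend on how peaks are merged and on the length of the lists. Asking for an overlap of 50% of the shorter peak gave 21.9% myoblast only and 27.3% at both stages, and joining peaks within 1 kb gave 18.4%, 34.2% and 47.4% (myoblast only, both, myotube only). With the myotube list reduced to its 2387 widest peaks, as many as in myoblasts, the shares were 35.6%, 28.1% and 36.3%. Lists of equal length leave nearly equal numbers of peaks outside the common regions. The closeness of the myoblast-only and myotube-only shares is therefore arithmetic and says nothing about binding. The wider 50% of each list gave 24.4%, 23.5% and 52.1%. Shares at gene starts moved past the interval for myotube-only regions with the reduced list (88.7%) and a window of 250 bp (67.0%). With the wider 50% of peaks they were 88.9%, 92% and 87.0%. For myoblast-only regions they were 55.6% with stretches chosen from Sin3A peaks and 100% without chromosome 16 (11 of 11). With the wider 50% of each list, 31 coding genes had Sin3B at both stages and 51 in myotubes only. In every other alternative run (dropping chromosome X, a 5 kb window, coding starts only, a 70% limit for stretches, dropping peaks under 50 bp, runs of regions in place of bins) shares stayed in the interval and gene counts within 1.5 times. The runs, peaks under 50 bp and chromosome 16 alternatives were chosen after seeing the data. No paired analysis was possible because the files of a group were identical and each stage has 1 list. Binding strength could not be compared, since no signal or depth is given.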
